A study of Mus musculus with 15 samples.

Results

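Matricellular proteins are secreted into the extracellular matrix, where they act on cells through integrins and other receptors rather than bearing load. Thrombospondin 1 binds CD47 and CD36 on cell surfaces and can release TGF-beta from its latent complex. In the bone marrow, stromal cells are a source of such proteins, and tenascin C and periostin have been linked to support of blood-forming cells. The 9 genes described here encode thrombospondins (Thbs1, Thbs2, Thbs3 and Comp), SPARC-related modular calcium-binding proteins (Smoc1 and Smoc2), the integrin ligand Edil3, periostin (Postn) and tenascin C (Tnc). They were matched by symbol in a table of 54532 genes. The set was selected on the differences between gel-treated and IR-Con cells in these same libraries, several of the genes being lower in all gels, so those differences are given as a description without a test.

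RNA was sequenced from mesenchymal stem cells of the bone marrow (BM-MSCs), primary cells of C57BL/6 mice bought from a supplier and used after a few passages. The 5 groups held 3 libraries each, and every group, IR-Con included, had received 5 Gy of radiation. For 48 h the cells were cultured with Gel (alginate carrying a grafted Arg-Gly-Asp peptide, RGD-Alg), with Gel/IL-12 (the same gel with the cytokine interleukin 12), with Gel/Laponite (the gel with a synthetic nanoclay), with Gel/Laponite@IL-12 (clay and cytokine together), or in IR-Con without any gel. No unirradiated cells entered the comparisons, and the labels do not say whether the 3 libraries of a group came from separate cultures. The methods give separate experiments only as a general rule for the study's data and do not name the sequencing, so the p-values cover the spread between these libraries, which may be technical. The 4 gel groups were all set against the same 3 IR-Con libraries.

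Total counts ran from 15147272 to 17818982 in the 12 gel libraries and from 14506459 to 16568349 in the 3 IR-Con libraries. The 9 genes took 1.03 to 1.09% of all counts in the gels and 1.83 to 1.96% in IR-Con. IR-Con libraries spread more than gel libraries, with a biological coefficient of variation of 3.52 to 4.06% within the gel groups and 17.1% within IR-Con. Mitochondrial genes took 2.79 to 3.06% of counts in the gels and 1.91 to 2.56% in IR-Con, with IR-Con replicate 3 lowest, and the nuclear RNA Malat1 took 0.0568 to 0.182% in the gels and 0.356 to 0.542% in IR-Con. Neither share overlapped between gels and IR-Con, and their part in the differences below was not tested. The stromal markers had a summed level over 9 genes of 1935 to 2015 CPM (read counts scaled to library size with TMM factors) in the gels and 1806 to 2018 CPM in IR-Con. Their mean levels in the gels ran from 1.49 CPM for Lepr to 755 CPM for Ly6a. Of these markers, edgeR called 3 higher and 3 lower in the gels, beside 27.4% and 27.6% of all genes tested. Thy1 had a mean of 17.1 CPM in the gels and 4.52 CPM in IR-Con, and Lepr had 1.49 and 2.87 CPM. Blood markers (6 genes) summed to 13.0 to 16.8 CPM in the gels and 12.9 to 18.7 CPM in IR-Con, with the leukocyte marker Ptprc at 0 in all IR-Con libraries and at no more than 0.318 CPM in a gel library. Endothelial markers (6 genes) summed to 8.45 to 12.2 CPM in the gels and 9.53 to 10.6 CPM in IR-Con, and Emcn was at 0 in every library. Osteoblast markers (6 genes) summed to 77.0 to 90.6 CPM in the gels and 73.4 to 87.4 CPM in IR-Con, nearly all of it Runx2 and Alpl, of which Alpl was higher in the gels (15.3 CPM, against 7.84 CPM in IR-Con).

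The gel carries the integrin-binding tripeptide Arg-Gly-Asp (RGD), and some of the 9 proteins hold the same tripeptide. In the longest coding transcript of each gene (GENCODE M21), RGD was encoded by Thbs1, Thbs2, Comp and Edil3 and not by the other 5 genes. Over 21511 mouse proteins taken the same way, 7.27% held RGD, and the share was 11.2% among 8828 proteins as long as the 9 (458 to 2110 residues). The coding sequence around the tripeptide is shown for these 4 genes because it is what they share with the material, with the RGD codons in capitals and the reading frame starting at the first base.
Thbs1: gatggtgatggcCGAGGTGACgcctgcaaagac
Thbs2: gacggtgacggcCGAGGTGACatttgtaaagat
Comp: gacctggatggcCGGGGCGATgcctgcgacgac
Edil3: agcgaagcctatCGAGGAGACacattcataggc
The tripeptide lay at residue 927 of 1171 in Thbs1, 928 of 1172 in Thbs2, 365 of 755 in Comp and 96 of 480 in Edil3. In the thrombospondins it falls in the calcium-binding type 3 repeats, and in Edil3 in an EGF-like domain. Thbs1 and Thbs2 used the same codons for it, Edil3 differed from them in the glycine codon alone, and Comp differed in all of its codons. Aligned residues were identical at 62.8% of positions between Thbs1 and Thbs2, at 65.6% between Thbs3 and Comp and at 56.4% between Smoc1 and Smoc2.

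Relative to transcript length, Thbs2 and Thbs1 were by far the most abundant of the 9, and the order of the rest differed between gels and IR-Con. Levels between genes are compared on the deposited FPKM values (fragments scaled to transcript length and library size). In the gels the mean FPKM was 935 for Thbs2, 442 for Thbs1, 36.3 for Tnc, 11.6 for Smoc2, 8.29 for Thbs3, 4.08 for Postn, 0.517 for Edil3, 0.411 for Comp and 0.0576 for Smoc1. In IR-Con it was 1573 for Thbs2, 789 for Thbs1, 63.2 for Smoc2, 15.1 for Tnc, 5.88 for Postn, 5.74 for Edil3, 5.37 for Thbs3 and 0.894 for Comp, and Smoc1 was listed at 0. Smoc2 thus stood above Tnc in IR-Con and below it in the gels. The ranges of Smoc2 and Thbs3, and those of Edil3 and Comp, overlapped in the gels, and those of Postn, Edil3 and Thbs3 overlapped in IR-Con, so the order of these neighbours is not resolved.

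**Figure D1:**
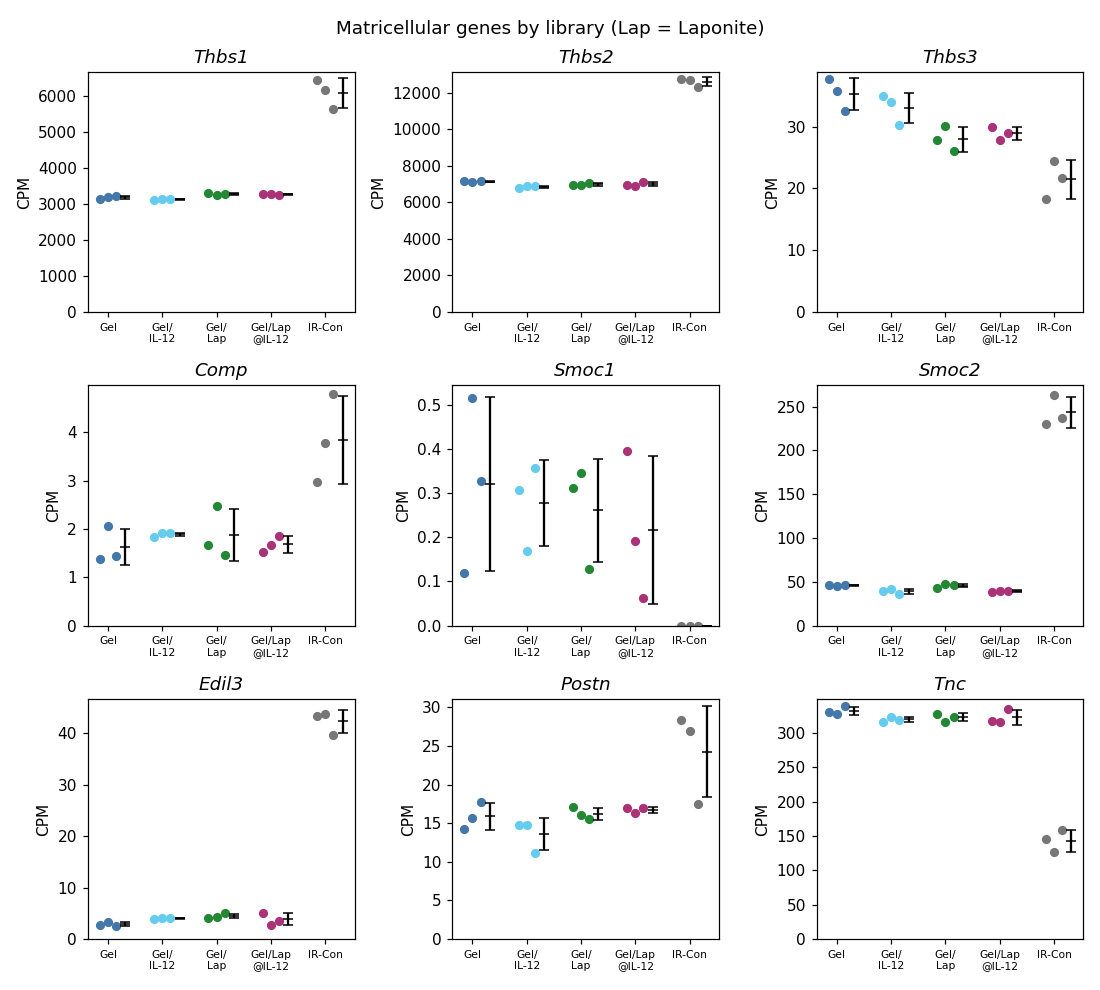
CPM of the 9 genes in each library, with the 4 gel groups from left to right and then IR-Con in each panel (Lap stands for Laponite). Points are libraries, and the bar beside them is the mean ± SD of 3 libraries. Thbs1, Thbs2, Comp, Smoc2 and Edil3 lie lower in all 12 gel libraries than in any IR-Con library, Thbs3, Smoc1 and Tnc lie higher, and Postn overlaps.

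In the gels, 5 of the 9 genes (Thbs1, Thbs2, Comp, Smoc2 and Edil3) lay below all 3 IR-Con libraries in all 12 gel libraries. The same held for 15.6% of the 15590 genes tested. Thbs3, Smoc1 and Tnc, 3 of the 9, lay above IR-Con in all 12 gel libraries, as did 18.0% of all genes tested. Postn overlapped. Since the set was selected on this contrast, nothing is read from these counts. Of the 9 genes, 8 passed the filter on low counts, and Smoc1 did not. The SEs (standard errors) of the gels against IR-Con come from an edgeR fit that shares the spread of a gene across groups. Since IR-Con spread more than the gels, these SEs can be too small, also for the list genes below. In bulk RNA, fewer cells that express a gene and less RNA of it in each cell cannot be told apart.

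Thbs1 (chromosome 2, 118111876 to 118127133 on GRCm38, plus strand) encodes thrombospondin 1, a trimeric glycoprotein known as an inhibitor of angiogenesis. Its level was 3124, 3239 and 3316 CPM (lowest, median and highest) in the 12 gel libraries, against 6459, 6192 and 5642 CPM in IR-Con. The groups were far apart, and the 12 gel libraries varied by a coefficient of variation of 2.10%. The fitted log2 fold change of the gels over IR-Con was -0.92 (SE 0.034), a ratio of 0.528. Its exons share 208 of 6073 bases with the opposite-strand gene Gm29233, which had no counts in the gels. Taken gel by gel, it ran from -0.96 for Gel/IL-12 to -0.89 for Gel/Laponite.

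Thbs2 (chromosome 17, 14665500 to 14694235, minus strand) encodes thrombospondin 2, a close relative of thrombospondin 1 with a role in collagen fibril assembly. It had 6807, 6963 and 7186 CPM (lowest, median and highest) in the gels, against 12769, 12703 and 12311 CPM in IR-Con. All gel libraries were lower, and the log2 fold change was -0.85 (SE 0.029). The 4 gels lay between -0.88 in Gel/IL-12 and -0.82 in Gel, so Thbs1 and Thbs2 shifted by similar amounts in each gel.

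Thbs3 (chromosome 3, 89215180 to 89226837, plus strand) and Comp (chromosome 8, 70373558 to 70382066, plus strand) encode pentameric thrombospondins, and Comp is best known from cartilage and tendon. Thbs3 went the other way from Thbs1 and Thbs2, with 26.0, 30.2 and 37.7 CPM (lowest, median and highest) in the gels, against 18.2, 24.4 and 21.8 CPM in IR-Con. Its log2 fold change was 0.54 (SE 0.080), and it differed between gels, from 0.38 in Gel/Laponite to 0.72 in Gel. The annotated exons of Thbs3 share 318 bases with the opposite-strand gene Mtx1, and strand use in counting is not given in the sources used here, so its counts are uncertain to that extent. Mtx1 itself had 17.9 to 21.4 CPM in the gels and 16.3 to 20.4 CPM in IR-Con, a log2 fold change of 0.12 that did not pass edgeR's test (adjusted p = 0.189).

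Comp was scarce, with 22 to 43 counts per library in the gels and 49 to 69 in IR-Con. This was 1.38, 1.76 and 2.48 CPM (lowest, median and highest) in the gels, against 2.98, 3.77 and 4.80 CPM in IR-Con. The groups did not overlap, and the log2 fold change was -1.12 (SE 0.188), with a wide error because of the low counts. Chondrocyte markers (6 genes) summed to 34.5 to 44.0 CPM in the gels and 46.4 to 52.5 CPM in IR-Con, and tendon markers (3 genes) to 26.1 to 31.4 CPM in the gels and 40.0 to 61.8 CPM in IR-Con. The difference in each sum came mostly from 1 gene: Col11a2 was lower (-1.19, SE 0.116) and so was the tendon factor Scx (-0.98, SE 0.130), both past edgeR's test. Acan, the cartilage proteoglycan aggrecan, was higher (0.79, SE 0.303, edgeR adjusted p = 0.0321), and Sox9 (-0.11, SE 0.075) and Mkx (-0.11, SE 0.125) did not pass. Col9a1 was at 0 in every library, and Col2a1, the defining cartilage collagen, had at most 0.799 CPM in a gel library and 0.487 CPM in IR-Con. The part of such cells in the Comp difference was not tested.

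Smoc2 and Edil3 showed the largest differences among the 8 genes that passed the filter. Smoc2 (chromosome 17, 14279506 to 14404790, plus strand) encodes a calcium-binding matrix protein of the SPARC family and lies on the same chromosome as Thbs2. It had 36.4, 42.4 and 47.0 CPM (lowest, median and highest) in the gels, against 230, 263 and 237 CPM in IR-Con. The highest gel library stood far below the lowest IR-Con library. The log2 fold change was -2.52 (SE 0.042), the 51st lowest of the 15590 genes tested, and it was -2.64 for Gel/IL-12 and -2.63 for the gel with cytokine and clay, but -2.41 in both gels without it.

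Edil3 (chromosome 13, 88821472 to 89323223, plus strand) encodes a secreted ligand of the integrin alpha-v beta-3. It had 2.55, 4.02 and 5.14 CPM (lowest, median and highest) in the gels, against 43.5, 43.8 and 39.7 CPM in IR-Con. In counts this was 39 to 79 reads per gel library, against 571 to 716 in IR-Con. The log2 fold change was -3.49 (SE 0.096), the 20th lowest of all genes tested, and it ran from -3.87 in Gel to -3.23 in Gel/Laponite. The gel mean was 0.0903 of the IR-Con mean.

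Smoc1 (chromosome 12, 81026808 to 81186414, plus strand), the near relative of Smoc2, had no count in any of the 3 IR-Con libraries and 1 to 8 counts in each of the 12 gel libraries. The pooled gel level was 0.267 CPM, 4.14-fold the 0.0645 CPM that 3 counts over the IR-Con group together would give. Smoc1 and Smoc2 thus lay on opposite sides of IR-Con, Smoc1 at a level of a few reads. The fold allows for counting error in IR-Con alone, not for that in the gels or for any other spread, so it is not a lower bound.

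Postn (chromosome 3, 54361109 to 54391037, plus strand) encodes periostin, a ligand of integrins made by fibroblasts and osteogenic cells. It had 11.2, 15.9 and 17.7 CPM (lowest, median and highest) in the gels, against 28.4, 26.9 and 17.5 CPM in IR-Con. IR-Con replicate 3 lay within the gel range, so the groups overlapped. The log2 fold change was -0.65 (SE 0.109) and became -0.52 without IR-Con replicate 1, -0.57 without replicate 2 and -0.83 without replicate 3. Leaving out 1 IR-Con library at a time gave -1.27 to -0.93 for Comp, 0.43 to 0.65 for Thbs3, -0.97 to -0.88 for Thbs1 and 1.10 to 1.25 for Tnc.

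Tnc (chromosome 4, 63959785 to 64047015, minus strand) encodes tenascin C, a large matrix glycoprotein that is made during development, wounding and inflammation. It had 316, 323 and 339 CPM (lowest, median and highest) in the gels, against 145, 126 and 158 CPM in IR-Con. All 12 gel libraries lay above, at about the same level, with a coefficient of variation of 2.38%. The log2 fold change was 1.18 (SE 0.052), and the gels differed little, from 1.16 in Gel/IL-12 to 1.21 in Gel. Its exons share 176 bases with the opposite-strand gene 8030451A03Rik, which had no more than 1.44 CPM in a gel library and 0.960 CPM in IR-Con.

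**Figure D2:**
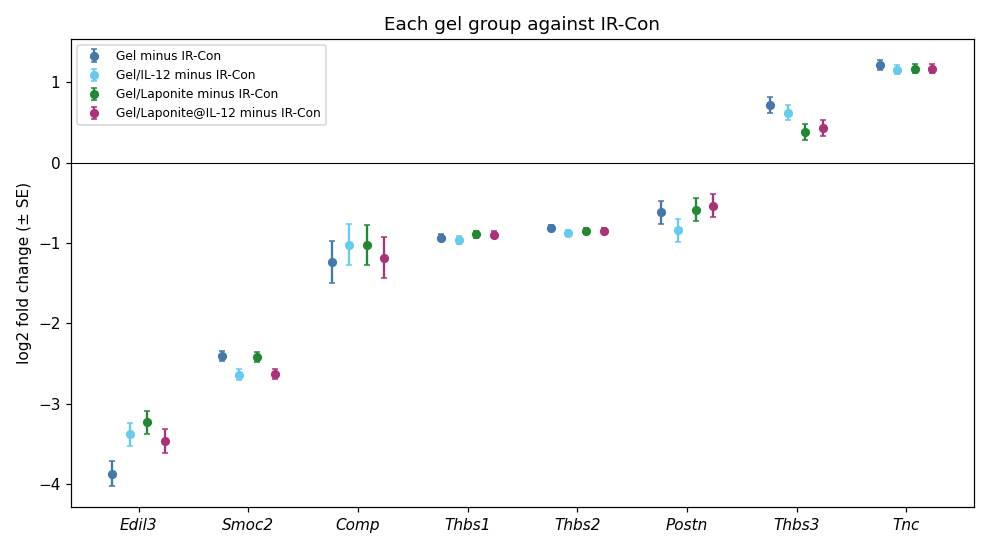
Fitted log2 fold change ± SE of each gel group over IR-Con (edgeR, 15 libraries) for the 8 genes that passed the filter, ordered from Edil3 to Tnc. The 4 gel groups lie on the same side of 0 in each gene. Edil3 is lowest at -3.87 to -3.23, and Thbs3 and Tnc lie above 0. The 4 comparisons share the IR-Con libraries, and the SEs can be too small because IR-Con spread more than the gels.

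Promoters from RefSeq (GRCm38.p6, 250 bases before to 50 after the start) were matched for Thbs2, Thbs3, Postn and Tnc, which gave 6 promoters, since Postn and Tnc have 2 each. Shown are those of Thbs2, the most abundant gene and lower in the gels, and Tnc, which was higher, with TATAAA or its reverse complement in capitals.
Thbs2, chr17:14694213-14694512, minus strand: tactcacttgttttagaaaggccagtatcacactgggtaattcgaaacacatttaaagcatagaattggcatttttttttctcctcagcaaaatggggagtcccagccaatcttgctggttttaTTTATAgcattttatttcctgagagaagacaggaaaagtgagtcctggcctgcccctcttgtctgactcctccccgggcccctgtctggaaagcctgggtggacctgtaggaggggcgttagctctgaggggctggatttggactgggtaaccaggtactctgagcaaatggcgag
Tnc, chr4:64046966-64047265, minus strand: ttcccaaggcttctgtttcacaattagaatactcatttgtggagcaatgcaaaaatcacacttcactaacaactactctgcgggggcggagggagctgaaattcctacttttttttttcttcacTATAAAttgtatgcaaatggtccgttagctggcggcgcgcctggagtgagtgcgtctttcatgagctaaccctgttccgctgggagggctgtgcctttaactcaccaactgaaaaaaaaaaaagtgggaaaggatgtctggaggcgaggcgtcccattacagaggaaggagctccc
The letters TATAAA, searched on both strands, occurred in the Thbs2 promoter, in 1 of the Postn promoters 26 bases before the start and in both overlapping Tnc promoters. Among all 32841 promoters of this length, 13.6% held them. None of the 6 promoters held CATTCC (the motif of TEAD factors, in 14.7% of all promoters), TGANTCA (AP-1, 7.81%) or ACGTG (hypoxia-inducible factors, 19.6%). A match is a run of letters and not a shown binding site.

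The contrasts among the gels were not used to select the genes, although earlier results of these data were known by then. These contrasts were tested in the 12 gel libraries alone, with edgeR's quasi-likelihood F test and Benjamini-Hochberg adjustment over 15188 genes. They ask whether IL-12, Laponite or their combination altered the genes within the gel. Smoc2 was lower with IL-12, Thbs3 was lower and Thbs1 slightly higher with Laponite, and no gene passed the test for a different IL-12 effect with and without Laponite. IL-12 changed 1 of the 8 tested genes against 0.342% of all genes, Laponite 2 of 8 against 5.52%, and the interaction 0 of 8 against 3.70%.

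Smoc2 had 36.4, 39.5 and 41.4 CPM (lowest, median and highest) in the 6 libraries with IL-12, against 43.4, 46.0 and 47.0 CPM in the 6 without. No library with IL-12 reached the level of one without. The log2 difference was -0.22 (SE 0.040, 95% interval -0.30 to -0.14, edgeR adjusted p = 0.00022), and it was present both without and with clay. Gel/IL-12 had 39.4, 41.4 and 36.4 CPM, against 45.8, 45.3 and 46.3 CPM in Gel. Gel/Laponite@IL-12 had 38.5, 39.7 and 39.9 CPM, against 43.4, 47.0 and 46.4 CPM in Gel/Laponite. Its interaction value was 0.02 (95% interval -0.14 to 0.17). The difference passed without each gel library in turn, with edgeR adjusted p up to 0.00498, but not in a fit that also took in the more variable IR-Con libraries (adjusted p = 0.274). The other 7 genes did not pass for IL-12. Thbs2 came nearest, at -0.03 (95% interval -0.05 to -0.01, edgeR unadjusted p = 0.00397, adjusted p = 0.353), and the intervals of the other 6 genes included 0.

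Thbs3 had 26.0, 28.4 and 30.1 CPM (lowest, median and highest) in the 6 libraries with Laponite, against 30.3, 34.4 and 37.7 CPM in the 6 without. The 2 sets touched without overlapping. The log2 difference was -0.27 (SE 0.048, 95% interval -0.37 to -0.18, edgeR adjusted p = 1.6e-05), and adjusted p was 0.0746 in the fit with IR-Con. Mtx1, which shares exon bases with Thbs3, had a Laponite difference of 0.01 (SE 0.058). The difference was clearest between Gel/Laponite, with 27.8, 30.1 and 26.0 CPM, and Gel, with 37.7, 35.7 and 32.6 CPM. There it was -0.34 (SE 0.068, edgeR adjusted p = 0.00018).

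Thbs1 had 3258, 3275 and 3316 CPM (lowest, median and highest) in the 6 libraries with Laponite, against 3124, 3148 and 3219 CPM in the 6 without. The sets did not overlap, but the difference was small, 0.05 on the log2 scale (SE 0.012, 95% interval 0.02 to 0.07, edgeR adjusted p = 0.0046), a ratio of 1.03. It did not pass when genes of low count were kept (adjusted p = 0.0577) or with IR-Con in the fit (0.907). Thbs2, its nearest relative, had a Laponite difference of -0.01 (95% interval -0.03 to 0.01).

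Edil3 and Postn had larger but less certain Laponite differences. For Edil3 it was 0.27 (95% interval 0.01 to 0.54) and for Postn 0.16 (95% interval 0.03 to 0.30), and neither passed after adjustment (edgeR adjusted p = 0.282 and 0.189). Comp had the widest interval, -0.37 to 0.40, at its count of 22 to 43 reads per library. Tnc differed by -0.02 (95% interval -0.06 to 0.02), and Smoc2 by -0.003 (95% interval -0.08 to 0.08).

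For the interaction, 2 of the 8 genes had an unadjusted p under 0.05, with edgeR, namely Thbs2 (0.06, SE 0.021, adjusted p = 0.0909) and Edil3 (-0.72, SE 0.266, adjusted p = 0.133). Thbs2 passed with DESeq2 (adjusted p = 0.0333), and with edgeR without Gel/Laponite replicate 3 (0.0225) or without Gel/Laponite@IL-12 replicate 2 (0.0190). Edil3 passed without Gel/Laponite@IL-12 replicate 1 (0.0375). With clay, Edil3 had 78, 44 and 58 counts in Gel/Laponite@IL-12, against 67, 75 and 79 counts for Gel/Laponite. Without clay it had 65, 72 and 69 counts in Gel/IL-12, against 46, 52 and 39 counts for Gel. The IL-12 libraries were higher without clay and overlapped with it.

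**Figure D3:**
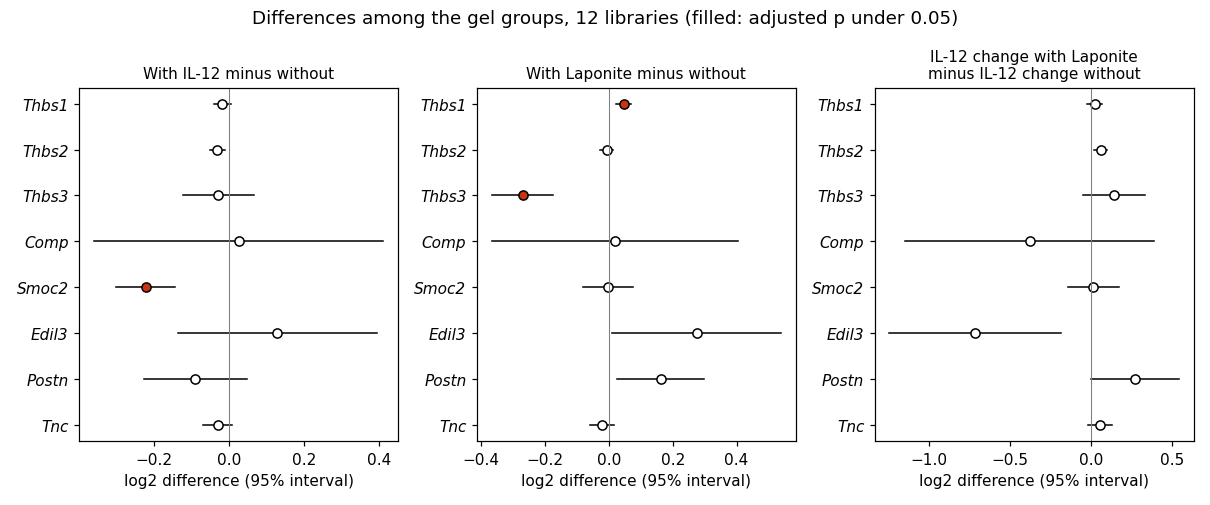
Log2 differences among the gels with 95% intervals for 8 genes, for IL-12 (left), Laponite (middle) and their interaction (right), from edgeR on 12 libraries. Filled points passed an adjusted p of 0.05. They are Smoc2 for IL-12 (-0.22) and Thbs1 and Thbs3 for Laponite (0.05 and -0.27).

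Over the 6 pairs of gel groups, 11 of 48 gene and pair combinations passed, 4 of them for Smoc2, 3 for Thbs3, 2 for Thbs1 and 1 each for Thbs2 and Edil3. They were 2 of 8 for Gel/IL-12 against Gel (1.80% of all genes), 2 for Gel/Laponite against Gel (5.39%) and 2 for Gel/Laponite@IL-12 against Gel (3.09%). They were 3 of 8 for Gel/Laponite against Gel/IL-12 (2.28%), 1 for Gel/Laponite@IL-12 against Gel/IL-12 (4.34%) and 1 for Gel/Laponite@IL-12 against Gel/Laponite (1.73%). The pairs share libraries with each other and with the effects above, so they are not further evidence. Only Thbs3 in Gel/Laponite against Gel passed without each library in turn, and each of the other 10 was lost without at least 1 library. The call on Edil3 in Gel/Laponite against Gel (0.63, SE 0.191, edgeR adjusted p = 0.0312) was lost without Gel replicate 1 (0.112), Gel replicate 3 (0.165), Gel/Laponite replicate 2 (0.0566) or Gel/Laponite replicate 3 (0.145). With all 15 libraries in the fit, 0 combinations passed.

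The receptors, relatives and pathway of these genes were followed in 4 lists, by setting the average of all gels against IR-Con. The lists were chosen with earlier results of these data known, so their counts are a description and not independent support. The edgeR test called 27.4% of all genes higher and 27.6% lower, and all genes had a median log2 fold change of -0.008. Because IR-Con spread more, the test was repeated with limma-moderated variances estimated apart in IR-Con and in the gels, an alternative added after the data were seen. That test called 16.6% of genes higher and 13.5% lower. All adjusted p-values of the lists below are from edgeR with Benjamini-Hochberg adjustment unless named otherwise.

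Other matricellular genes moved in both directions. Of 18 tested, 9 were higher and 7 lower (median 0.25), and 7 and 5 with separate variances. Spp1, the integrin ligand osteopontin, had the highest log2 fold change of the 18, with a mean of 1167 ± 23.7 CPM in the gels (SD, n = 12), against 188 ± 47.4 CPM in IR-Con (SD, n = 3), a log2 fold change of 2.63 (SE 0.117). Among the CCN proteins, Ctgf (CCN2) was higher by 0.80 (SE 0.043), while Cyr61 (CCN1) was lower at -0.59 (SE 0.037) and Nov (CCN3) at -0.78 (SE 0.038). The fibulin Fbln1 was higher by 0.58 (SE 0.045). Tnr, the tenascin best known from the nervous system, was lower at -2.49 (SE 0.136), so that Tnc and Tnr lay on opposite sides of IR-Con. These 6 passed both tests, with adjusted p up to 0.00129 with separate variances.

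Of 13 receptor genes tested, 6 were higher and 6 lower (median 0.05), and 6 and 2 with separate variances. Calr, which encodes calreticulin, a partner of LRP1 in thrombospondin signalling, was higher by 0.73 (SE 0.037). The heparan sulfate proteoglycan Sdc4 was higher by 0.74 (SE 0.038), and the class B scavenger receptor Scarb1 by 0.60 (SE 0.063). The tenascin and RGD receptor subunit Itga8 was lower at -1.83 (SE 0.134), with 2.61 ± 0.467 CPM in the gels and 9.22 ± 1.24 CPM in IR-Con (SD, n = 12 and 3). Itgav, the alpha-v subunit that binds RGD ligands, was lower at -0.36 (SE 0.047). Itgb5 had -0.25 (SE 0.049) and did not pass with separate variances (adjusted p = 0.0713). Cd47, the cell-surface receptor of thrombospondin 1, was higher by 0.41 (SE 0.046), and Cd36 was not tested, with a mean of 0.0844 CPM in the gels and 0 in IR-Con. Itgb3, the beta-3 subunit, was higher by 0.42 (SE 0.082) and Lrp1 was lower at -0.35 (SE 0.084), both past edgeR's test. The libraries of Lrp1 overlapped, with 4055 to 6326 CPM in IR-Con and 3712 to 4471 CPM in the gels. Cd47, Cd36, Itgb3 and Lrp1 were named after their values were seen.

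Of 12 matrix partners and proteases, 3 were higher and 5 lower (median -0.13), and 2 and 1 with separate variances. Dcn, the collagen-binding proteoglycan decorin, was higher by 0.76 (SE 0.049), and Adamts7, a protease that cleaves COMP, by 0.76 (SE 0.090). Col1a1 was lower at -0.76 (SE 0.112), with IR-Con libraries far apart (5637 to 9922 CPM, against 4113 to 4643 CPM in the gels). The lysyl oxidase Lox (0.27, SE 0.031), the proteoglycan Bgn (-0.20, SE 0.039) and the procollagen protease Bmp1 (-0.28, SE 0.055) passed with edgeR and not with separate variances (adjusted p = 0.126, 0.210 and 0.0679). Without IR-Con replicate 3, edgeR called 5 of the 12 higher.

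All 8 genes of the TGF-beta list passed with edgeR, 4 higher and 4 lower (median 0.02), and 2 and 3 with separate variances. Tgfbr2, the type II receptor, had the lowest log2 fold change of the 8, with 547 ± 62.7 CPM in the gels and 1465 ± 27.2 CPM in IR-Con (SD, n = 12 and 3), a log2 fold change of -1.43 (SE 0.030). Tgfbr2 also differed among the gels, by 0.30 with Laponite (edgeR adjusted p = 2.2e-28) and by -0.07 with IL-12 (edgeR adjusted p = 0.0358). The ligands Tgfb3 (-0.55, SE 0.047) and Tgfb2 (-0.61, SE 0.061) were lower. The type I receptor Tgfbr1 was higher by 0.34 (SE 0.055). The inhibitor Smad7 had 0.39 (SE 0.113), with adjusted p = 0.0062 from edgeR and 0.0635 with separate variances. Among the gels, edgeR called 2 of 18 relatives, 0 of 13 receptors, 1 of 12 partners and 1 of 8 genes of the TGF-beta list for IL-12, beside 0.342% of all genes. For Laponite it called 4 of 18 relatives, 3 of 13 receptors, 6 of 12 partners and 4 of 8 TGF-beta genes, beside 5.52% of all genes. The partners called had log2 differences of -0.51 (Adamts12), 0.12 (Tgm2), -0.10 (Fn1), -0.09 (Col1a1), -0.05 (Bgn) and -0.04 (Lox). With all 15 libraries in the fit, the Laponite calls over all genes fell from 839 to 134, and the lists were not counted there.

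**Figure D4:**
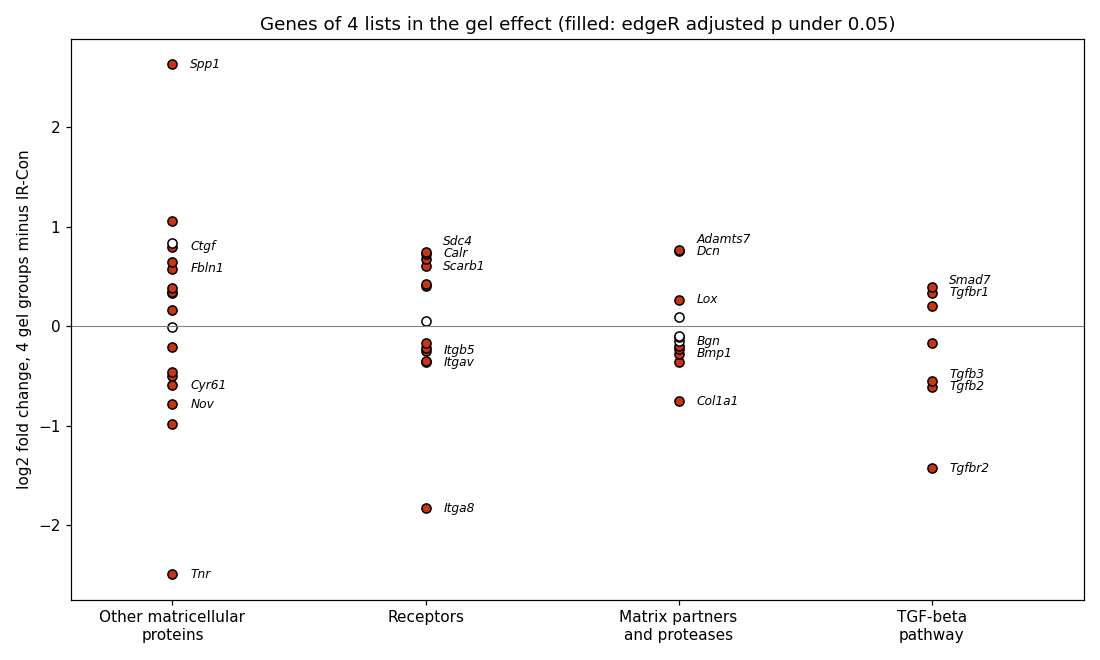
Log2 fold change of the gels over IR-Con (edgeR, 15 libraries) for tested genes of 4 lists. Filled points passed an adjusted p of 0.05 with edgeR, and labels mark the genes selected by rule. Spp1 lies at 2.63 and Tnr at -2.49 among the relatives, Itga8 at -1.83 among the receptors and Tgfbr2 at -1.43 in the TGF-beta list. Itgb5, Lox, Bgn, Bmp1 and Smad7 did not pass with separate variances.

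For each of the 8 tested genes, the 2 genes with the most similar profile over the 15 libraries were found among 9620 or 9621 genes with a mean of at least 10 CPM. Likeness was the root mean square difference of centred log2 CPM, which is set mostly by the step between gels and IR-Con. Thbs2 lay nearest to Sh3d19 (0.036) and then to Thbs1 (0.049). Thbs1 lay nearest to Znhit6 and Arhgap42 (both 0.040). Tnc lay nearest to Rrm2 (0.063), a subunit of ribonucleotide reductase, and Slco3a1 (0.065). Thbs3 lay nearest to Angptl2 (0.097) and Lrrc8d (0.110).

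Smoc2 lay nearest to Daam2 (0.179) and to the bone matrix gene Omd (0.180). Edil3 lay nearest to Daam2 (0.433) and then to Smoc2 (0.492), at larger distances than the other genes. Postn lay nearest to the interferon-induced genes Oas1a (0.116) and Ifit1 (0.125). Comp lay nearest to Apcdd1 (0.197) and Gas1 (0.200).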

How the data were processed

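Counts per gene were deposited by the authors as whole numbers without normalization, beside FPKM values computed by the authors, for 15 libraries. The genome build is mm10 per the labels. The aligner, counter and library strandedness are not given in the sources used here. FPKM values were used only to order levels between genes. Within a gene they are not strictly proportional to the count. The 20 columns of group means and the authors' own 10 comparisons (log2 fold change, p and adjusted p) were not used. Gene coordinates are GENCODE M21 on GRCm38, matched by gene identifier. Coordinates in the deposited table differ from these and were not used.

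The 9 genes and all lists were chosen with earlier results of these data known. Genes were kept by edgeR's filterByExpr (minimum count 10, minimum total 15), which left 15590 genes over 15 libraries and 15188 over the 12 gel libraries. The quasi-likelihood model (edgeR 4.0.16, R 4.3.3) used TMM scaling, a mean per group and robust estimation, with 10 and 8 residual degrees of freedom. Its p-values and intervals do not rest on these alone, since the model also borrows variance across genes. At the same SE, intervals among the gels are narrower, and p-values smaller, than 8 residual degrees of freedom would give. They therefore depend on that borrowed variance. Benjamini-Hochberg adjustment ran over the whole tested table, with a threshold of 0.05. The gel effect is the average over the 4 gels less IR-Con. The IL-12 and Laponite effects are the mean of the gels with the agent minus those without, and the interaction is the IL-12 difference with Laponite minus that without. The fits were tested on simulated data in which IR-Con spread more than the gels and all genes of a group had the same spread. There edgeR's calls for the gel effect held more false ones than the threshold states, while the separate-variance fit held few. Because the simulated spread did not vary between genes, this does not show the share of false calls of either fit in the real data. Named are the 9 genes, up to 3 higher and 3 lower per list by adjusted p, and the 2 nearest profiles per gene (prior count 2). One gene that this rule names is counted in its list but not reported here. The lists are other matricellular genes (22, of which 18 were tested), receptors (16, 13 tested), matrix partners and proteases (12) and TGF-beta (8), beside marker lists of stromal, blood, endothelial, chondrocyte, osteoblast and tendon cells. No 2 libraries of a group held identical values or agreed within sampling noise. Alternatives were DESeq2 1.42.0, its size factors, no filter, a replicate block, leaving out each library, limma 3.58.1 voom with group weights, all 15 libraries in the fit for the gels, and separate variances.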

Additional observations from a re-analysis of the deposited data

Results flagged for a closer look

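Of 33 genes checked, which were the 9 matricellular genes and the list genes selected by rule, 3 list genes had an IL-12 effect that differed with and without Laponite (edgeR interaction over 12 gel libraries, Benjamini-Hochberg adjusted). Over all genes tested, 562 of 15188 (3.70%) passed the same test. For Ctgf the interaction was -0.28 on the log2 scale (adjusted p = 8.1e-06), with an IL-12 difference of -0.14 with Laponite and 0.14 without. For Dcn it was -0.16 (adjusted p = 0.022), with 0.10 with Laponite and 0.26 without. For Lox it was -0.11 (adjusted p = 0.00029), with -0.07 with Laponite and 0.04 without. None of the 8 tested matricellular genes was among them.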

How the results depend on the processing

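Of the 8 tested genes, 6 were lower in the gels under all alternatives run, and no direction of the gel effect reversed. Over all genes, the gel effect gave 8573 calls with edgeR, 5058 with voom and group weights and 4683 with separate variances. Separate variances left 2 receptors lower, 1 partner lower and 2 TGF-beta genes higher, and voom left 3 partners lower. With all 15 libraries in the fit, 0 genes passed for IL-12, 0 for Laponite and 0 gene and pair combinations between pairs of gels. The IL-12 and Laponite calls over all genes were then 3 and 134, against 52 and 839, and those for the interaction 0, against 562. Without the filter, 1 gene passed for Laponite. DESeq2 called 1 for the interaction, Thbs2. It set the adjusted p of Thbs3, Comp, Smoc2, Edil3 and Postn to NA for both the interaction and IL-12, so it does not check these genes there. It also set those of 3 of the 11 pair calls to NA and kept 7 of the 11. It therefore gives no count for IL-12 or for the pairs. Leaving out 1 library gave 1 call for IL-12 and 2 for Laponite each time, 0 to 1 for the interaction and 7 to 11 between pairs, the 7 without Gel/IL-12 replicate 1. It gave 9 to 10 relatives higher and 6 to 7 lower, 6 to 7 receptors higher and 4 to 6 lower, 3 to 5 partners higher and 4 to 6 lower, and 3 to 4 TGF-beta genes higher and 4 lower.

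A replicate block was tried because the groups share replicate numbers. Same-numbered libraries did not deviate together (correlations of -0.072 to 0.041, and 2 of 15 libraries correlated best with their own number), so the numbers were not taken as pairs. With the replicate block, 1 gene was called for IL-12, 2 for Laponite and 0 for the interaction, and Smoc2 had -0.22 for IL-12. Depth limits Comp, Edil3 and above all Smoc1, whose gel libraries held 1 to 8 reads.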
